A study of Mus musculus with 14 samples.

Results

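Line 524 is 1 of 12 cultured Eµ-Myc lymphoma lines in a series of 14 samples, and it was set here against the other 11 cultured lines. It was picked because its library holds almost no Trp53 RNA. It was chosen by its line number from the table of read counts, and the 2 lymphomas grown in mice were left out. Each of the 12 lines came from a different Eµ-MycTg/+ mouse, is labelled as malignant B cells of genotype WT, and gave 1 RNA library. All were left untreated and were grown for 24 h in DMEM with 10% serum, 50 µM 2-mercaptoethanol and 0.37 mM L-asparagine. The labels name these lines 115, 136, 309, 504, 505, 506, 517, 549, 649, 688 and 801 beside 524. In Eµ-Myc mice the Myc oncogene is driven in B lineage cells by the immunoglobulin heavy chain enhancer, and the word WT in the labels says nothing of mutations that a lymphoma gained later. A line is the outgrowth of 1 mouse's tumour, so differences between line 524 and the others are differences between tumours, not the effect of losing 1 gene.

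p53, encoded by Trp53, is a transcription factor that raises genes of cell cycle arrest, DNA repair and cell death when DNA is damaged or an oncogene such as Myc is active, and Mdm2, one of its targets, marks it for degradation. Loss of p53 or of its activator ARF, a product of Cdkn2a, is a well known step in Eµ-Myc lymphoma. B cells pass from progenitors that rearrange their immunoglobulin genes to mature cells that carry CD20 (Ms4a1) and present antigen on MHC class II molecules, whose genes need the coactivator CIITA. NF-kB is a family of transcription factors held in the cytoplasm by inhibitors such as IκBα (Nfkbia), several of which are themselves NF-kB targets.

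Line 524 had 29679445 counted reads, within the 24597230 to 32614751 of the 12 lines, and 18316 genes with a count against 17050 to 18714. Mitochondrial genes took 1.27% of its reads against 0.862% to 2.10%. Levels are in CPM, a gene's reads scaled to its library's size after TMM normalization, and a gene without a count lies below 3 counts, or 0.105 CPM in line 524. A gene is called here when the edgeR quasi-likelihood test gave a Benjamini-Hochberg adjusted p under 0.05. The single library of line 524 is assumed in that test to vary like the other 11, so its p-values measure only the spread between these lines. Line 524 alone can be ranked among 12 values with a one-sided exact permutation p no lower than 0.0833. The lines are bulk cultures, so fewer cells with a gene and less RNA per cell cannot be told apart.

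The 4 genes given with the line set it apart by level, and since it was named with them in view they are described without a test. Trp53 (chromosome 11, 69580359 to 69591873 in GRCm38) had 2 reads in line 524, or 0.0702 CPM, while the other lines ranged from 67.1 CPM (line 517) through a median of 238 to 316 CPM (line 504). Cd74, the invariant chain that guides MHC class II molecules, stood at 4412 CPM against 7.78 to 1199 with a median of 61.7. Ms4a1 stood at 534 CPM against 0 to 168 with a median of 1.82. Reln, a secreted glycoprotein best known from neuron migration, had 1 read, or 0.0351 CPM, against 4.72 to 1673 CPM with a median of 1033. None of these 4 levels overlapped the range of the other lines. The line is nevertheless of the B lineage by its markers. Ighm was 3546 CPM against 760 to 3651, inside the range. Pax5 was 435 CPM against 497 to 680, below all others, and Cd79a was 868 against 288 to 778, above all; neither was called.

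**Figure D1:**
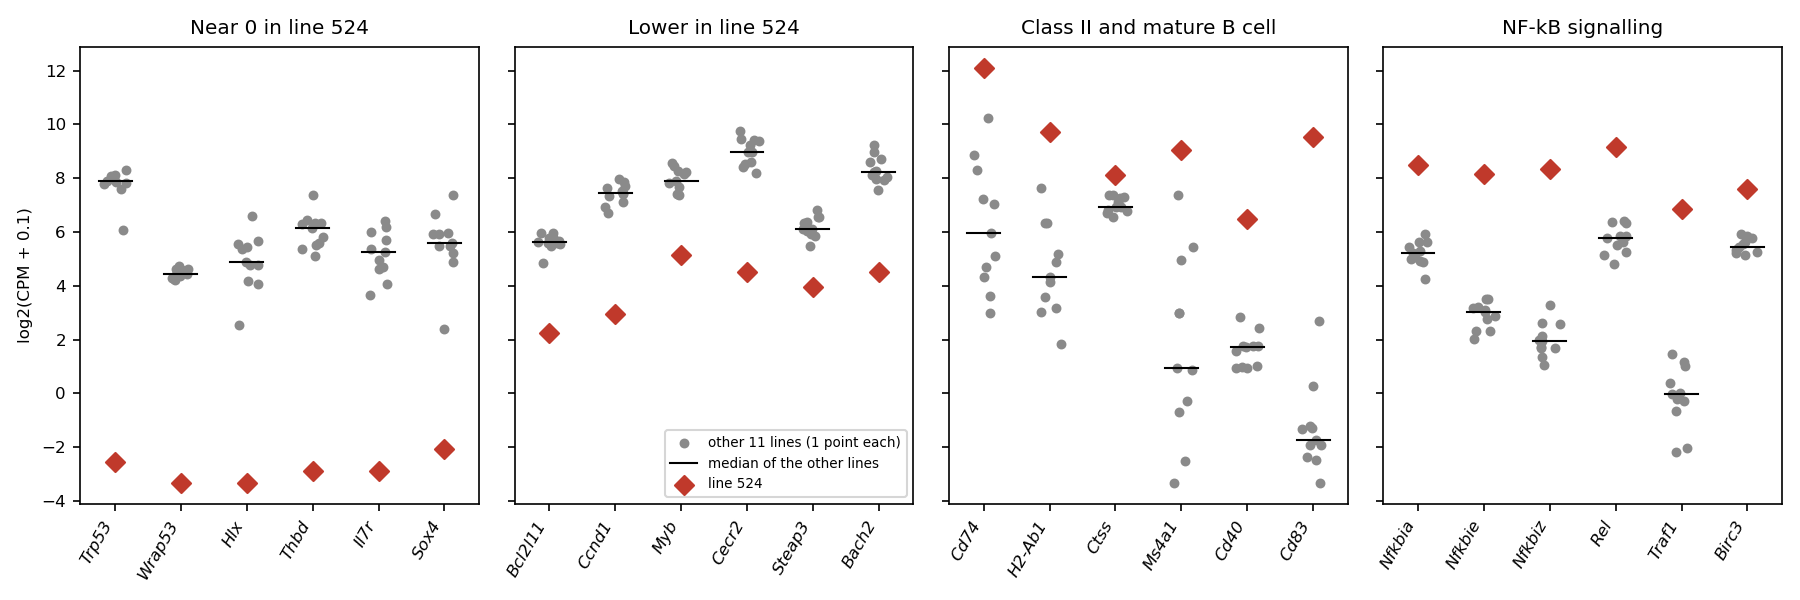
Level of 24 genes in each of the 12 lines, as log2(CPM + 0.1). Grey points are the other 11 lines, black bars their median, and red diamonds line 524, which has no overlap with the grey points for any of the 24 genes.

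Across all genes, 621 of the 15648 tested were called in line 524 (3.97%), 445 higher (2.84%) and 176 lower (1.12%). The unadjusted p was under 0.05 for 2234 genes. Line 524 lay above all other lines for 2392 genes (15.3%) and below all for 1882 (12.0%), and the median fitted log2 difference was -0.09. Of the tested genes, 318 entered only through line 524, with 10 or more reads there and fewer than 10 in each other line, and 138 of these were called. DESeq2 called 513 genes higher (3.65%) and 578 lower (4.11%) of 14062 on the same counts, so the excess of higher genes did not hold with it. Without line 504 the edgeR count rose to 963 (703 higher).

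Genes with many reads in line 524 and almost none elsewhere include surface and signalling proteins. Cdh16, a kidney-type cadherin, had 1981 reads and none in the other 11 lines, at least 7636-fold higher. Cadm1, an adhesion molecule, had 770 reads against none, at least 2968-fold higher, and Parm1 had 655 against none, at least 2525-fold higher. The tetraspanin Cd9 had 3467 reads against 2 in all other lines together, a ratio of 22064 (95% counting interval 6103 to 182266). The chemokine Ccl4 had 2212 reads against 1, and the semaphorin receptor Nrp1 had 2050 against 1. The chemokine Ccl3 had 3976 against 5, and the guidance receptor Robo1 had 2759 against 4. The Fc receptor-like Fcrl5 had 3128 against 8. In all, 20 genes reached 10 CPM in line 524 with no more than 3 reads in any other line. These genes were picked for being high there and entered the test only through line 524, so their calls lend no support. Of the 20, 17 were called, and these stand within the totals above. Intervals cover counting error only.

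In the other direction, 9740 genes had at least 1 CPM in each of the other 11 lines, and 32 of these had 3 reads or fewer in line 524, 16 of them none. Besides Trp53, these held the homeobox gene Hlx (0 reads against 5.66 to 95.7 CPM, at least 348-fold lower). Thbd, thrombomodulin, had 1 read against 34.5 to 165 CPM. These 32 genes were picked for being low there, Trp53 among them, so any calls among them lend no support.

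Trp53 itself was low together with the gene beside it. Wrap53, annotated on the other strand just before Trp53 and known to have transcripts antisense to it, had no read in line 524 against 18.7 to 26.5 CPM, at least 210-fold lower. The strand setting of the counting is not given in the sources used here, so reads of the 2 genes may not be told apart. Efnb3, the next gene on that side, an ephrin ligand, was 25.5 CPM against 0.973 to 2.77 with a median of 1.36 (log2 difference 4.07 ± 0.34 SE, edgeR adjusted p = 2.21e-05). Kdm6b, a histone demethylase, was 126 CPM against 39.1 to 84.3. Its call (adjusted p = 0.0295, edgeR) was lost without line 549 (0.0523) and with scaling by total counts (0.0792; range over all alternatives 0.0054 to 0.0792).

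On the other side of Trp53 several genes lay near 50% of their level elsewhere. Eif4a1, a helicase of translation initiation, was 757 CPM against 1299 to 1739, or 50.8% of the mean of the other lines (edgeR adjusted p = 0.00451). Fxr2, an RNA-binding protein, was 58.3 CPM against 96.1 to 130, or 51.0% (adjusted p = 0.00722). Eif5a, a translation factor, was 1029 CPM against 1727 to 2704, or 46.4% (adjusted p = 0.0177), and Gps2 was 17.7 CPM against 39.0 to 50.2, or 39.7% (adjusted p = 0.00134). Within 1 Mb, 31 genes with a mean of at least 1 CPM followed Trp53, with a median log2 difference of -0.69, 6 of them called lower and 15 below all other lines. The 21 genes before it had a median of 0.05, with 1 called lower (Wrap53), 2 called higher and 4 below all other lines. Of these 4, Naa38 (45.2%), Cyb5d1 (51.4%) and Trappc1 (51.7%) also lay near 50% of the mean of the other lines, and none of the 3 was called. Elp5, the next gene after Eif5a, was also below all others, and from Slc16a13, which starts 0.636 Mb after the start of Trp53, onwards to 1 Mb each gene lay within their range. For comparison, over all genes tested 1.12% were called lower, 2.84% were called higher and 12.0% lay below all other lines.

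**Figure D2:**
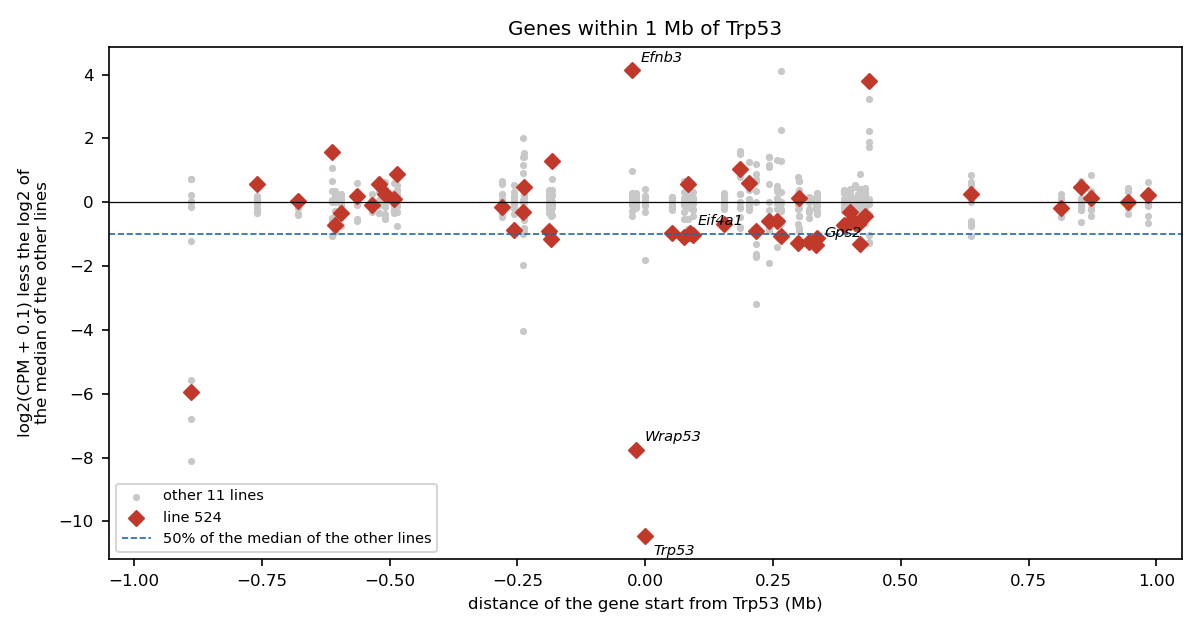
Genes within 1 Mb of Trp53, placed by the distance of their start, with log2(CPM + 0.1) less the log2 of the median of the other lines. Red diamonds are line 524 and grey points the other 11 lines; Trp53 and Wrap53 lie more than 7 log2 units down, and Eif4a1 and Gps2, to the right of Trp53, lie near the dashed 50% line.

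Genes of the PI3 kinase pathway were called in both directions. This list of 30 genes, all tested, was added after values had been seen, and is a description. It had 1 call higher (2.84% of all genes were) and 2 lower (1.12% of all genes), with a median of -0.08. Irs2, an insulin receptor substrate, was 132 CPM against 0.267 to 28.7, above all other lines. Its call (edgeR adjusted p = 0.0398) was lost without any 1 of the lines 115, 136, 309, 506, 517, 549, 688 and 801 (highest 0.0701) and with limma-trend (0.125; range over all alternatives 0.00105 to 0.125). Igf1r, the IGF-1 receptor, was 0.877 CPM against 12.5 to 45.2, below all (log2 difference -5.08 ± 0.71 SE, adjusted p = 0.00125). Akt1 was 275 CPM against 289 to 464, below all but not called (adjusted p = 0.223).

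Long runs of genes at a reduced level were also looked for along the chromosomes, with the median of 25 neighbouring genes and a limit of -0.6 on the log2 scale chosen after values had been seen, and without a test. DNA was not measured. There were 4 such stretches in line 524. They were taken where its own running median was low, so that most of their genes are low follows from that choice. Over all genes tested, 12.0% lay below all other lines and 1.12% were called lower. On chromosome 2, from Sord (122234749) to Anapc1 (128687391), 25 of 34 genes lay below all other lines and 12 were called lower, at a median of 52.1% of the median line. On chromosome 11, from Trp53 to Gps2, 9 of 13 genes lay below all others and 6 were called lower, at 51.1%. Both counts include Trp53, by which the line was picked. Further along chromosome 11, from Utp6 (79932321) to Slfn10-ps (83040042), 14 of 18 genes lay below all others and 10 were called lower, at 45.8%. On chromosome 14, from Ints9 (64950045) to Tdrd3 (87545373), 44 of 65 genes lay below all others and 20 were called lower, at 52.9%. No gene in the 4 stretches was called higher, and the medians of the other lines there were -0.12 to 0.19 on the log2 scale.

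Among the genes in these stretches, Suz12, a subunit of the Polycomb complex that methylates histones, was 166 CPM against 314 to 444 (edgeR adjusted p = 0.00833), and lies on chromosome 11. Dut, which removes dUTP, was 87.2 CPM against 192 to 259 (adjusted p = 0.000662), and Anapc1 of the anaphase promoting complex was 177 CPM against 323 to 444 (adjusted p = 0.00553), both on chromosome 2. Bcl2l11, which encodes the death protein BIM, lies in the same stretch and was lower than its neighbours, at 4.67 CPM against 28.8 to 63.0, or 9.28% of the mean of the other lines (log2 difference -3.43 ± 0.41 SE, adjusted p = 0.000393). Slc30a4, elsewhere in the chromosome 2 stretch, was lower still, at 0.386 CPM against 26.3 to 98.1. The tumour suppressor Rb1, within the chromosome 14 stretch, was 66.0 CPM against 28.5 to 96.8, inside the range. Lpar6, in the same chromosome 14 stretch, was 0.105 CPM against 6.41 to 17.3. For the other lines, running medians past the same limit, low or high, were only counted per chromosome, whether or not they adjoined. By this looser rule, with at least 5 on a chromosome, 7 of the 11 had them, 4 with low and 5 with high ones. None of the low ones was on chromosome 2, 11 or 14. The stretches described above were sought as low runs only, so these counts cannot be compared with them directly.

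**Figure D3:**
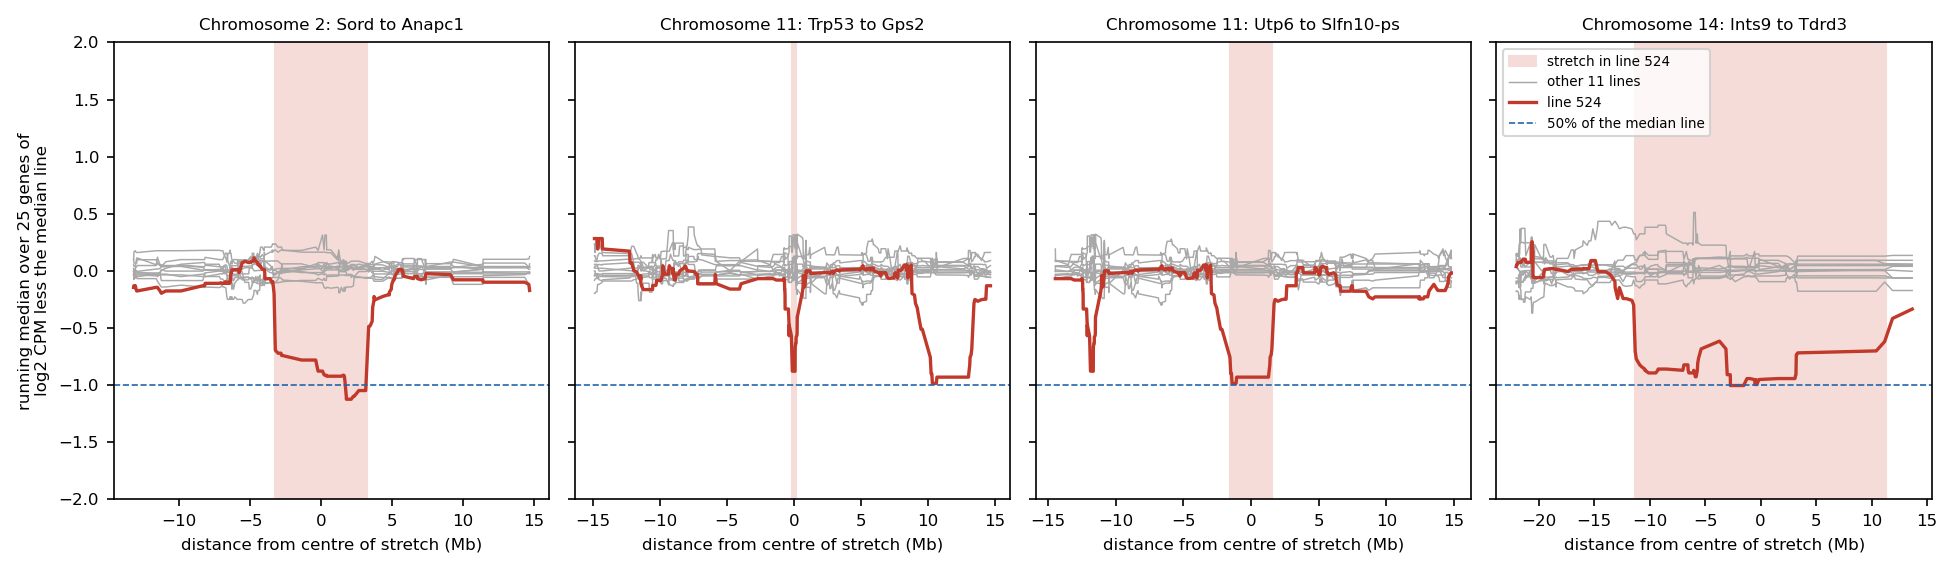
Running median over 25 genes of log2 CPM less the median line, along the 4 stretches (shaded) with distance from the stretch's centre in Mb. The red line is line 524, which falls to about the dashed 50% level in each stretch, and the grey lines are the other 11 lines; both panels of chromosome 11 show its other stretch as well, unshaded.

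Genes that p53 activates did not fall as a group. Of 58 listed targets 54 were tested, with 3 called higher (2.84% of all genes were), 1 called lower (1.12% of all genes) and 50 not called, and the median log2 difference was -0.05. Line 524 was above all others for 13 of the 54 (15.3% of all genes), below all for 9 (12.0% of all genes), and within their range for 32. Whether p53 was active in the other lines was not tested. The summed level of the 58 was 1905 CPM against 1541 to 2376. Without line 504 there were 6 called higher, and DESeq2 called 4 higher and 2 lower.

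Genes of arrest and feedback were not called. Cdkn1a, the p21 inhibitor that halts the cell cycle, was 4.10 CPM against 0.0957 to 12.6 with a median of 0.813, inside the range of the other lines (edgeR adjusted p = 0.913). Mdm2 was 81.7 CPM against 49.9 to 78.1, above all others by a small margin (log2 difference 0.26 ± 0.20 SE, adjusted p = 0.644). Ccng1, cyclin G1, was 53.8 CPM against 20.6 to 72.5, and Aen, a nuclease of apoptosis, was 72.2 against 64.5 to 88.4. Sesn1, a stress sensor, was 63.8 CPM against 32.5 to 91.0. All 3 lay within the range.

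Targets of cell death pointed both ways. Bbc3, which encodes the death protein PUMA, was 6.31 CPM against 8.96 to 21.9, below all others but not called (edgeR adjusted p = 0.157), and it was called by DESeq2 (0.0285; range over all alternatives 0.0285 to 0.222). Pmaip1, which encodes NOXA, was 83.3 CPM against 3.29 to 57.7 with a median of 6.13, above all (adjusted p = 0.191). It was called by DESeq2 (0.000216) and without line 504, its highest other line (0.00395; range over all alternatives 0.000216 to 0.251). Bax was 80.5 CPM against 74.6 to 121, inside the range. Fas, a death receptor, was 6.49 CPM against 0 to 0.409 (log2 difference 6.31 ± 1.19 SE, adjusted p = 0.0102) and was called.

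The other calls among the targets were Plk3, Ier5 and Steap3. Plk3, a stress kinase, was 53.3 CPM against 2.43 to 12.7 (log2 difference 2.93 ± 0.50 SE, edgeR adjusted p = 0.00511). Ier5, an immediate early gene, was 159 CPM against 26.4 to 61.3 (1.99 ± 0.34 SE, adjusted p = 0.0052). Steap3, an iron reductase, was 15.5 CPM against 44.5 to 113 (-2.29 ± 0.46 SE, adjusted p = 0.0143), the single target called lower by edgeR. None of these 3 overlapped the other lines.

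**Figure D4:**
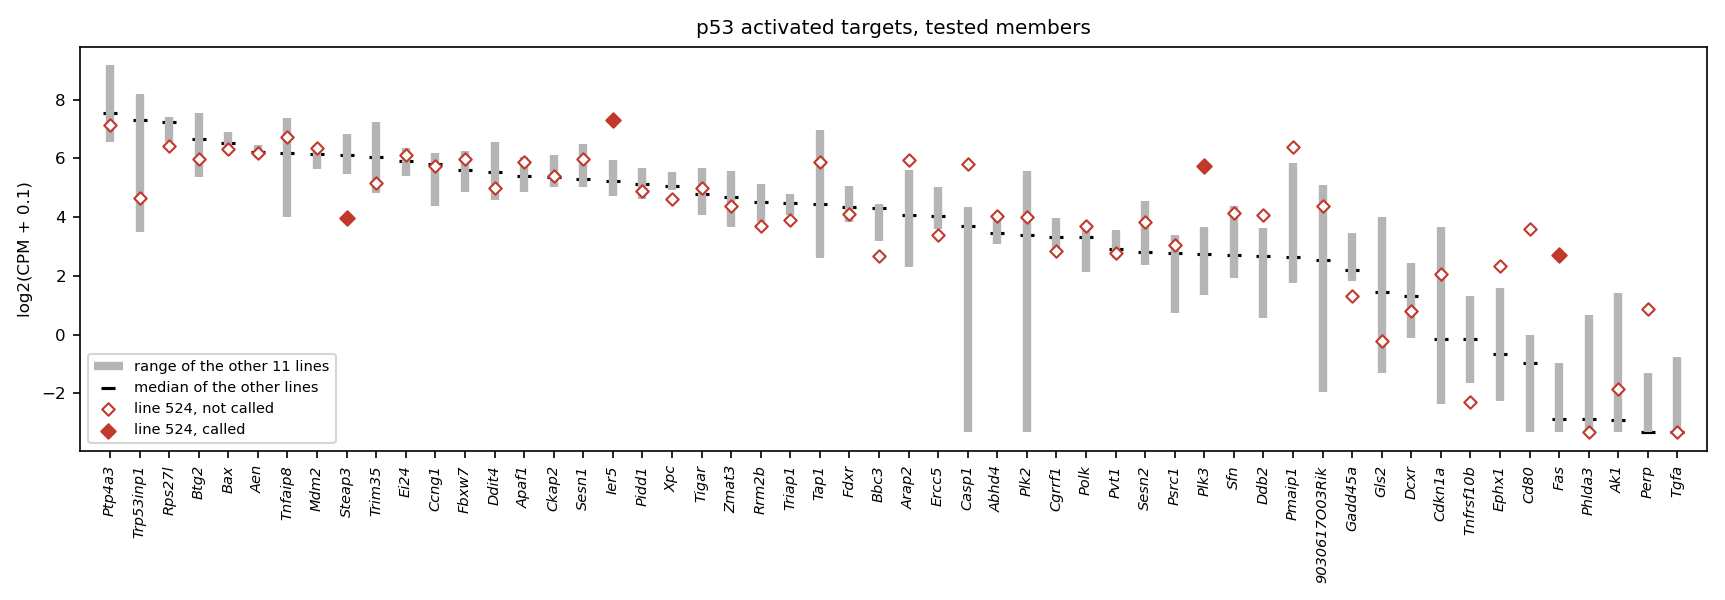
The 54 tested p53 targets in order of their median in the other lines, as log2(CPM + 0.1). Grey bars span the other 11 lines, black marks are their median, and diamonds are line 524, filled for the 4 called genes (Plk3, Ier5 and Fas higher, Steap3 lower); 32 diamonds lie within the bars.

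Among 27 regulators and relatives of p53, 25 were tested, with a median of -0.25. Of these, 1 was called higher (2.84% of all genes were) and 2 lower (1.12% of all genes). The 2 lower were Trp53, by which the line was picked, and Wrap53 beside it. Without Trp53 the median over 24 tested genes was -0.23. Pml, which forms the nuclear bodies where p53 is modified, was 256 CPM against 39.8 to 104 (log2 difference 1.98 ± 0.36 SE, edgeR adjusted p = 0.00789). Cdkn2a was 191 CPM against 0 to 211, and the other lines fell into 4 between 95.9 and 211 CPM (115, 136, 517 and 801) and 7 at 9.60 or below. Line 524 thus lay among the higher ones. Mdm4, a partner of Mdm2, was 137 CPM against 111 to 366, and the relatives Trp63 and Trp73 had no read in line 524.

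Genes of antigen presentation on MHC class II had a higher summed level in line 524 than in any other line, with Cd74 or without it. The promoters of class II genes carry sites for the factors that CIITA joins, and 3 of them, picked from those with a match, are printed from RefSeq (GRCm38.p6), as the 150 bases before the gene start. Capitals mark the Y box, TGATTGG, and TGATGC, a match to the core of the X2 box, on either strand. The 2 motifs did not share bases in these 3 sequences. H2-Aa, the class II alpha chain, is from chr17:34287824-34287973, minus strand. H2-Eb1, a beta chain, is from chr17:34305717-34305866, plus strand. H2-DMb1, of the peptide-loading molecule, is from chr17:34153041-34153190, plus strand.
H2-Aa: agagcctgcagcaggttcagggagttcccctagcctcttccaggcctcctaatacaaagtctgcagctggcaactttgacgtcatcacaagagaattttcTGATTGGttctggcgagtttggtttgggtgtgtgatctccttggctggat
H2-Eb1: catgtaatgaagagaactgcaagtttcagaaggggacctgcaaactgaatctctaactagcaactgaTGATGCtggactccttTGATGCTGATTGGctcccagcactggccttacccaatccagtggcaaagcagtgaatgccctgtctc
H2-DMb1: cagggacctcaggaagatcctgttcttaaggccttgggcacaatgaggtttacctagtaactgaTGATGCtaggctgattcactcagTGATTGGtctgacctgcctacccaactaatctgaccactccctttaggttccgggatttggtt
Of the 22 promoters found for 16 genes of this list, 10 held TGATTGG (45.5%) against 5.71% of all 32851 promoters, and 5 held TGATGC (22.7%) against 5.68%. A match describes letters, not binding.

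Of the 21 class II genes, all tested, 16 lay above all other lines (15.3% of all genes did), none below, and the median log2 difference was 3.16 against -0.09 over all genes. The summed level was 8767 CPM against 602 to 2735. These values include Cd74, which was given with the line and made up 4412 CPM of the sum. Without it, a choice made after seeing the data, 15 of 20 genes lay above all other lines, the median was 2.56, and the sum was 4356 CPM against 582 to 1536. H2-Aa was 1008 CPM against 0.204 to 218 with a median of 5.97, and H2-Eb1 was 736 against 0.0679 to 181 with a median of 1.68. H2-Ab1, the other class II beta chain, was 836 CPM against 3.51 to 201 with a median of 20 CPM. Line 524 was the highest for each of these 3, and line 517 came next. Ciita was 133 CPM against 0.0339 to 45.8, with the same order. H2-DMa was 80.6 against 0 to 26.1, H2-DMb1 65.1 against 0.0638 to 31.5, and H2-DMb2 170 against 0 to 33.5, and in these too line 524 was the highest. The general factors Rfxap (23 CPM against 18.5 to 41.3) and Nfyb (37.8 against 31.6 to 51.2) lay inside the range.

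Few class II genes were called by edgeR, which called 2.84% of all genes higher. Only Ctss, the protease that trims the invariant chain, was called, at 279 CPM against 94.6 to 166 (log2 difference 1.08 ± 0.26 SE, edgeR adjusted p = 0.0341). That call was lost when line 136, 549, 649 or 801 was left out and with scaling by total counts (highest 0.0552; range over all alternatives 0.00715 to 0.0552). H2-Ab1 had an edgeR adjusted p of 0.0647, and Ciita one of 0.283. The unadjusted p was under 0.05 for 10 of the 21. Without line 517 the number called was 5, with H2-Ab1 at 0.0135 (range over all alternatives 0.0135 to 0.111), and without line 504 it was 2. DESeq2 called 4.

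For MHC class I, 2 of 24 genes were called higher (2.84% of all genes were) and none lower, with a median of 0.61. Line 524 lay above all other lines for 6 (15.3% of all genes) and within their range for 18. Tapbp, tapasin, which loads peptide, was 164 CPM against 32.7 to 69.5 (log2 difference 1.68 ± 0.24 SE, edgeR adjusted p = 0.00158). H2-T23, the non-classical molecule Qa-1, was 106 CPM against 13.7 to 44.6 (1.95 ± 0.40 SE, adjusted p = 0.0152). The classical chains H2-K1 (323 CPM against 34.3 to 476) and H2-D1 (402 against 47.2 to 585) and B2m (430 against 167 to 808) lay inside the range of the other lines.

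Some genes of mature B cells were also higher. Of 35, all tested, 9 were called higher (2.84% of all genes were) and none lower. Line 524 lay above all other lines for 21 (15.3% of all genes) and below all for none, and the median was 2.31. Without Ms4a1, which was given with the line, the median was 2.23 and 20 of 34 lay above all. The costimulatory receptor Cd40 was 88.8 CPM against 1.82 to 7.12 with a median of 3.19 (log2 difference 4.76 ± 0.46 SE, edgeR adjusted p = 7.58e-05). Cd83, an activation marker, was 732 CPM against 0 to 6.30 with a median of 0.200 (9.76 ± 1.31 SE, adjusted p = 0.000961). The follicle homing receptor Cxcr5 was 44.9 CPM against 0.373 to 2.79 (5.21 ± 0.68 SE, adjusted p = 0.000814). None of these 3 overlapped the other lines. The gut homing integrin Itgb7 was 232 CPM against 0.637 to 8.90 (adjusted p = 0.000271), the DNA sensor Tlr9 was 117 against 6.55 to 30.7 (adjusted p = 0.00335), and the BAFF and APRIL receptor Tnfrsf13b was 264 against 30.1 to 104 (adjusted p = 0.022). Fcer2a, the low affinity IgE receptor CD23, had 42 reads, 1.47 CPM, against 0 to 0.0339, and was tested only through line 524.

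Mature B cell genes did not all move. Cd22, an inhibitory receptor, was 338 CPM against 158 to 407, Cd72 was 137 against 111 to 359, and Fcrla was 119 against 19.2 to 342, each inside the range. Cr2, the complement receptor CD21, had 2 reads in line 524 against 0 to 27.4 CPM. Of 11 plasma cell genes, 9 were tested and none was called by edgeR or DESeq2, with 2 at an unadjusted p under 0.05.

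Some listed progenitor B cell genes were lower. Of 26 listed, 24 were tested, with 7 called lower (1.12% of all genes were) and none higher. Line 524 lay below all other lines for 13 (12.0% of all genes) and above all for 1, and the fitted median was -8.55. With the 8 tested genes without a read in line 524 set at their bound, and 1 at the floor on both sides left out, the median was -7.06. DESeq2 called 15 lower. Cecr2, a chromatin protein, was 22.7 CPM against 292 to 856 (log2 difference -4.56 ± 0.70 SE, edgeR adjusted p = 0.00251), and Myb, a factor of early blood cells, was 35.6 CPM against 165 to 380 (-2.84 ± 0.54 SE, adjusted p = 0.0105). Il7r, the receptor for the growth factor of progenitor B cells, had 1 read against 12.5 to 85.6 CPM, a level 1206 times lower (95% counting interval 216 to 47633). Akap12 was 1.16 CPM against 23.5 to 421, and Sox4 had 4 reads, 0.140 CPM, against 5.17 to 167. None of these 5 overlapped the other lines. The list's members were chosen with earlier results of these data known, and Cecr2, Akap12 and Cplx2 were among the 7 called. Of the other lines, line 504 had the lowest Cecr2 and Akap12 but the highest Cplx2 and Il7r.

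The recombinase genes had no read in line 524. Rag1 ranged from 3.47 to 133 CPM in the other lines and was at least 507-fold lower in line 524, and Rag2 ranged from 1.23 to 32.9 and was at least 115-fold lower. Neither was called by edgeR (adjusted p = 0.109 and 0.0745), and DESeq2 called both (1.29e-05 and 0.000335; ranges over all alternatives 1.29e-05 to 0.144 and 0.000335 to 0.0997). Dntt had 2 reads in line 524 and Igll1 none; line 504 set the top of their range at 989 and 418 CPM, where the medians of the other lines were 0.0602 and 5.46. Ly6d was the exception, at 141 CPM against 0 to 52.9.

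The B lineage factors themselves shifted in part. Of 23 genes expressed throughout the lineage, 2 were called higher (2.84% of all genes were) and 2 lower (1.12% of all genes). Irf8 was 628 CPM against 32.9 to 198 (log2 difference 2.95 ± 0.66 SE, edgeR adjusted p = 0.0264), and Irf4 was 1016 CPM against 139 to 414 (1.83 ± 0.42 SE, adjusted p = 0.0306); the call of Irf4 was lost with limma-trend (0.0647; range over all alternatives 0.0101 to 0.0647). Pou2af1, a B cell coactivator, was 374 CPM against 654 to 1133 (-1.21 ± 0.26 SE, adjusted p = 0.0229). Cd24a, a surface protein that falls as B cells mature, was 447 CPM against 919 to 2110. Its call (adjusted p = 0.0368) was lost without line 115, 136, 505, 649, 688 or 801 (highest 0.0573; range over all alternatives 0.000166 to 0.0573). Ebf1 was 18.8 CPM against 49.8 to 242, below all others but not called (adjusted p = 0.134), and it was called by DESeq2 (0.00371; range over all alternatives 0.00371 to 0.171). Bach2, a factor outside the list that holds back plasma cell genes, was 22.7 CPM against 191 to 600 (-3.91 ± 0.68 SE, adjusted p = 0.00597).

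Genes of NF-kB signalling were higher in line 524. For 3 of its genes the 150 bases before the start are printed from RefSeq (GRCm38.p6), with matches on either strand to the kB motif (GGG, any 3 bases, then TTCC) in capitals. Nfkbia is from chr12:55492648-55492797, minus strand. Nfkbie, another inhibitor, is from chr17:45555550-45555699, plus strand. Nfkb2, the p100 precursor, is from chr19:46304587-46304736, plus strand.
Nfkbia: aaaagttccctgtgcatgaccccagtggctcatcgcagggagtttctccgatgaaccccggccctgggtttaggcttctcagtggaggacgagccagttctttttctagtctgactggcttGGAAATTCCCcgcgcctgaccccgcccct
Nfkbie: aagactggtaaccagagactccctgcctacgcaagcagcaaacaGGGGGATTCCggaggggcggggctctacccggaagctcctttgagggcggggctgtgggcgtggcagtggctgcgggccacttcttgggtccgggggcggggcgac
Nfkb2: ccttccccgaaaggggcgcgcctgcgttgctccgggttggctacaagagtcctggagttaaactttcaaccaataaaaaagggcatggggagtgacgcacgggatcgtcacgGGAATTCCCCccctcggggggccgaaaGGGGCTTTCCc
The 3 were picked from the 8 with a match among 28 promoters found for 23 genes of this list (28.6%), against 3.05% of all promoters. Nfkb2 has 2 further listed starts, whose promoters held no match. Counted by gene, 7 of the 23 had a match (30.4%) against 3.51% of all genes with a promoter. The list was made up of NF-kB genes and targets, so this share describes the list. Here too a match describes letters, not binding.

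This list of 29 genes was put together after values had been seen, so its counts are a description. Of the 28 tested, 22 were called higher (2.84% of all genes were) and none lower, and 26 lay above all other lines (15.3% of all genes did). Of the 28, 7 were tested only through line 524 and 6 of those were called. The median was 4.65, and the summed level was 4786 CPM against 429 to 672. DESeq2 called 18.

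The inhibitors of the pathway were far above their level elsewhere. Nfkbia was 358 CPM against 18.8 to 60.7 with a median of 37.4 (log2 difference 3.21 ± 0.33 SE, edgeR adjusted p = 0.000132). Nfkbie was 283 CPM against 3.99 to 11.3 with a median of 7.96 (5.20 ± 0.32 SE, adjusted p = 2.25e-06). Nfkbiz, a nuclear inhibitor family member, was 328 CPM against 1.98 to 9.74 (6.25 ± 0.43 SE, adjusted p = 5.33e-06). Tnfaip3, the enzyme A20 that ends the signal, was 218 CPM against 0.5 to 14.1 (5.90 ± 0.81 SE, adjusted p = 0.00108). None of the 4 overlapped the other lines.

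The subunits rose with 1 exception. Rel was 567 CPM against 27.8 to 85.9 (log2 difference 3.34 ± 0.37 SE, edgeR adjusted p = 0.000252), Relb was 62.4 against 5.40 to 16 (2.67 ± 0.35 SE, adjusted p = 0.00087) and Nfkb1 was 668 against 111 to 225 (1.94 ± 0.27 SE, adjusted p = 0.00121). Nfkb2 was 147 CPM against 8.52 to 46.3 (adjusted p = 0.0191). Rela was 111 CPM against 60.2 to 106, above all but not called (0.38 ± 0.27 SE, adjusted p = 0.609). Of the target genes, Traf1, an adaptor of TNF receptors, was 116 CPM against 0.122 to 2.65 (adjusted p = 0.000317), and Icam1, an adhesion molecule, was 213 against 6.49 to 49.1 (adjusted p = 0.0232). With limma-trend the calls of Nfkb2 (0.0537; range over all alternatives 0.00675 to 0.0537) and Icam1 (0.0711; range 0.00917 to 0.0711) were lost. Tnf was 94.0 CPM against 0 to 22.3, above all but not called (adjusted p = 0.351).

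**Figure D5:**
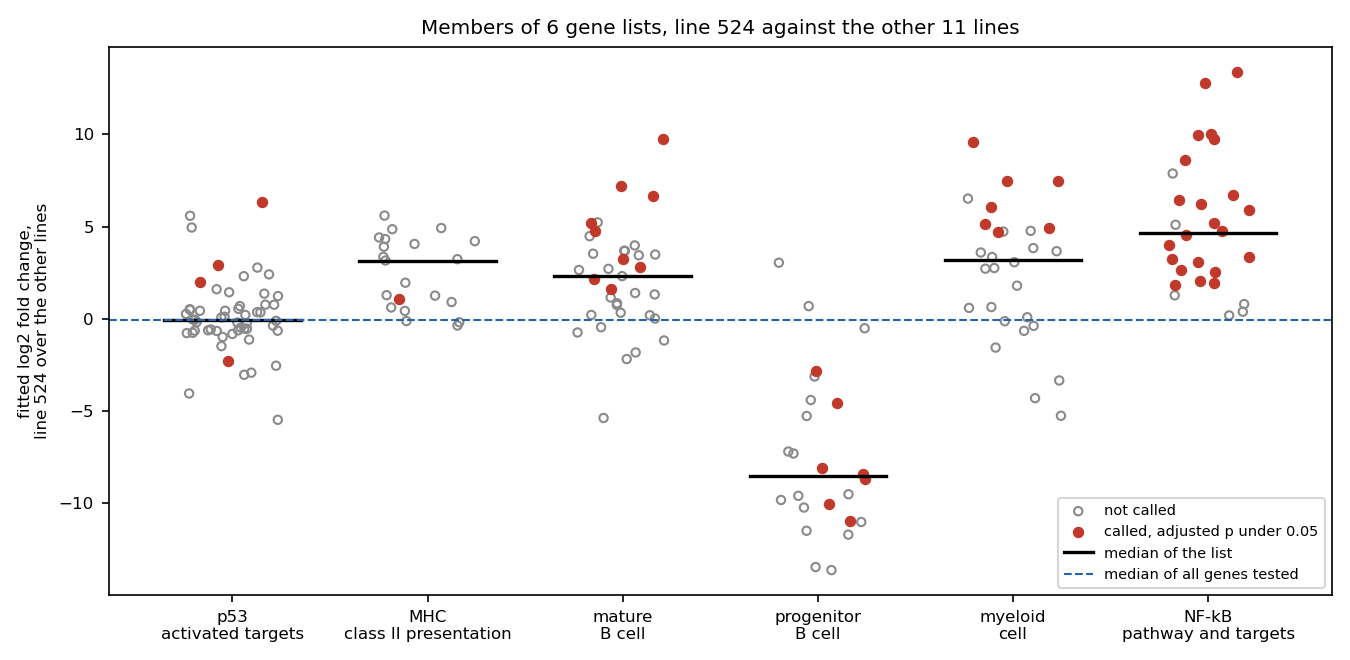
Fitted log2 difference of the tested members of 6 lists, line 524 over the other lines; red points are called, open points are not, black bars are list medians and the dashed line is the median of all genes tested. Medians run from -8.55 (progenitor B cell) to 4.65 (NF-kB, a list added after values were seen), and fitted values of genes without a read in 1 group depend on the model's prior count.

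Genes of survival and death moved on both sides. Of 23 genes of the BCL2 family and apoptosis, 22 were tested, with a median of 0.17. Among these, 5 were called higher (2.84% of all genes were) and 2 lower (1.12% of all genes). The survival genes Birc3 (192 CPM against 35 to 60.7, log2 difference 2.06 ± 0.23 SE, edgeR adjusted p = 0.000263) and Mcl1 (929 CPM against 220 to 495) were called. The call of Mcl1 (adjusted p = 0.0344) was lost without line 115, 505, 506, 549, 649 or 688 (highest 0.061), with scaling by total counts and with limma-trend (range over all alternatives 0.0104 to 0.064). The other 3 higher were Bcl2a1a, Bcl2a1b and Bcl2a1d, near-identical copies whose reads may have been divided among them: Bcl2a1d was 48.9 CPM against 0 to 0.365, and all 3 were tested only through line 524. DESeq2 did not call Bcl2a1d (0.292; range over all alternatives 4.1e-05 to 0.292). Bcl2l11 was among the 2 lower.

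Some myeloid-type genes were higher in line 524, while several lineage markers had no read. Of 50 listed genes 28 were tested, and 7 were called higher (2.84% of all genes were) and none lower. Only through line 524 were 4 of these 7 tested. Line 524 lay above all other lines for 20 of the 28 (15.3% of all genes) and below all for none, with a median of 3.21. The summed level of the 50 was 913 CPM against 99.9 to 310. Cybb, a subunit of the phagocyte oxidase, was 275 CPM against 0.746 to 39.6 (log2 difference 4.72 ± 1.07 SE, edgeR adjusted p = 0.0267), a call lost with limma-trend (0.0801; range over all alternatives 0.000887 to 0.0801). Its partner Ncf1 was 102 CPM against 0.486 to 11.2 (4.92 ± 0.86 SE, adjusted p = 0.00603). Both are also known from B cells. Sirpa, an inhibitory receptor, was 77.2 CPM against 0 to 1.75. Its call (adjusted p = 0.0331) was lost without line 549 or 649 and by DESeq2 (range over all alternatives 0.0218 to 0.247). Lilrb4a, another inhibitory receptor, was 7.82 CPM against 0 to 0.0333, and Adgre1, which encodes the macrophage marker F4/80, was 1.26 CPM against 0 to 0.0679. Both were called but entered the test only through line 524.

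Of the markers of granulocytes and monocytes, some had no read. In the whole list 13 genes had no read in line 524, and 8 of these had none in any line. Lyz2, Csf3r, Elane, S100a8, S100a9 and Fcgr1 had no read in line 524, which allows up to 0.105 CPM, and Mpo and Cd14 had 1 read each. Csf1r had 6 reads, 0.210 CPM, against 0 to 4.96, and Spi1, which B cells also express, was 72.3 CPM against 53.7 to 109. With filtering at 1 CPM in at least 6 libraries, 2 myeloid-type genes were called. The part of other cells in these levels was not tested.

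Some genes of rapid response to stimulation were higher as well. Of 16 immediate early and heat shock genes, 4 were called higher (2.84% of all genes were) and none lower, with a median of 1.96. The 4 were Junb, Nr4a1, Egr2 and Egr3. Nr4a1, which rises on receptor signalling, was 490 CPM against 31.2 to 119 (log2 difference 3.18 ± 0.43 SE, edgeR adjusted p = 0.00102). Junb was 262 CPM against 26.6 to 67.9 (2.72 ± 0.31 SE, adjusted p = 0.000321), and Egr3 was 141 CPM against 0.197 to 5.39 (6.74 ± 1.09 SE, adjusted p = 0.00344). Egr1 was 258 CPM against 0.454 to 29.4 (adjusted p = 0.0647). It passed the threshold without line 504 (0.0458) or line 801 (0.0464; range over all alternatives 0.0458 to 0.131). The heat shock genes Hsph1 (152 CPM against 164 to 305, below all others) and Hspa1b (1.89 against 1.78 to 16) were not among those called.

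Cell cycle genes and the Myc network gave no edgeR calls, where 3.97% of all genes were called, and in lists this short no call is near that share. Of 30 cell cycle genes none was called by edgeR (5 at an unadjusted p under 0.05, 1 by DESeq2), 2 lay above all other lines and 4 below. Mki67, the proliferation marker Ki-67, was 1334 CPM against 638 to 986, above all (edgeR adjusted p = 0.0549), and Kif23 was 144 against 99.4 to 129. The mitotic genes Bub1 (86.2 CPM against 103 to 162), Bub1b (212 against 267 to 473), Cenpa (136 against 150 to 224) and Birc5 (133 against 141 to 168) lay below all. Further, of 21 tested genes of the Myc network none was called by edgeR (2 at an unadjusted p under 0.05, 1 by DESeq2). Myc was 1753 CPM against 470 to 2721 with a median of 1729. Ccnd1, cyclin D1, was 7.65 CPM against 105 to 252 (log2 difference -4.54 ± 0.54 SE, edgeR adjusted p = 0.000419), the single call among 14 genes of D cyclins, their inhibitors and Rb. Of 26 tested genes of the response to amino acid shortage none was called by edgeR or DESeq2, with 4 at an unadjusted p under 0.05. Asns, asparagine synthetase, was 30.4 CPM against 0.0314 to 268 with a median of 97.1.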

How the data were processed

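RNA from 12 cultured lymphoma lines was sequenced as paired ends after a stranded mRNA library preparation, per the labels' protocols. The authors deposited 1 table of raw read counts per gene; STAR 2.4.0, featureCounts of Subread 1.5.0-p3 and mm10 (GRCm38) are named per the submitters' processing notes. How featureCounts handled strand and multiply mapped reads is not given in these sources. Of 46959 gene entries, 100 spike-in and phage entries were left out. All 14 columns were mapped to samples by name and 12 were used.

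Counts were tested with edgeR 4.0.16 (TMM scaling, filterByExpr with a minimum count of 10, quasi-likelihood test, 10 residual degrees of freedom from the other 11 lines), with line 524 against the others and Benjamini-Hochberg adjustment over all genes tested. The procedure was tested on simulated data, where it recovered planted increases more often than planted decreases of the same size. Alternatives were DESeq2 1.42.0, limma-trend (limma 3.58.1), other scalings and filters, robust dispersion, immunoglobulin genes left out, and each other line left out; R 4.3.3, Python 3.11.15 and matplotlib 3.10.9 were used. List medians are over tested members.

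The genes named were Trp53, Cd74, Ms4a1, Reln, Cdkn1a, Mdm2, Cdkn2a, Asns and Myc, the 12 largest called changes in each direction (10 CPM or more required in line 524 or as the mean of the others, whichever was higher), up to 4 members of each list by smallest p with those outside the range of the other lines, and genes within 1 Mb of Trp53. Others, such as Bach2 and the genes of the chromosome stretches, were named after their values were seen. Some genes that the rule names are not reported here. The members and lists were chosen with earlier results of these data known. The NF-kB, PI3 kinase and FOXO lists were added after seeing the data. So were the counts of higher genes for p53 targets, MHC class II and mature B cells, and of lower progenitor B cell genes.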

Additional observations from a re-analysis of the deposited data

How the results depend on the processing

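Of 113 named genes compared, 92 were called, 71 of them in each of the 19 alternatives that gave a value and 21 lost in at least 1. The total of 621 called genes became 382 (228 higher) with a filter of at least 1 CPM in 6 libraries, which tests fewer genes, and 1091 with DESeq2 (578 lower). It was 517 (without line 549) to 963 (without line 504) when a line was left out, with 382 to 703 higher and 135 to 260 lower. With limma-trend 284 genes were called lower. Higher calls made up 59.7% with the stricter filter and 47.0% with DESeq2 against 71.7%. DESeq2 called 2 p53 targets and 15 progenitor B cell genes lower and 4 MHC class II genes higher. Total counts gave 0 MHC class II calls. The stricter filter gave 2 myeloid-type and 14 NF-kB calls, since it removes genes present only in line 524. Leaving out a line gave 3 to 6 p53 targets called higher and 0 (without line 136, 549, 649 or 801) to 5 (without line 517) MHC class II genes. The median of p53 targets turned to 0.17 with limma-trend. The median of chromosome 16 moved from -0.10 to -0.078 at a mean of at least 10 CPM. Myc, not called in any setting, was at -0.030 with total counts and -0.054 to 0.117 with a line left out. Causes other than those stated were not tested. With 1 library of line 524, its own variation between cultures is unknown. No paired analysis was possible because each line came from a different mouse and the lines share no replicate numbers. 3 lists (NF-kB, PI3 kinase, FOXO) were alternatives chosen after seeing the data. So were the higher counts for p53 targets, MHC class II, mature B, BCL2 family, immediate early and interferon genes. The lower count for progenitor B genes was also chosen then.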

Other observations

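The immunoglobulin transcripts of line 524 were led by 1 heavy and 1 kappa segment. Ighv5-12 had 13882 reads, 99.8% of its heavy chain V reads, and the other 11 lines held 9 reads of it together. Igkv1-135 had 35142 reads, 89.8% of its kappa V reads. In 3 of the other lines (506, 549 and 688) Ighv5-17 led the heavy V reads, while no other line was led by Ighv5-12. Igkv9-120 led the kappa V reads of the same 3 lines and of line 649. Lines 506 and 688 also shared Ighv5-2 as their second heavy V segment. The edgeR test treats the other lines as independent, and whether these 3 are was not tested. The constant segment Ighg2b had 287 reads against 6 in all other lines, and Ighg1 had 88 against 0, beside an Ighm level inside the range of the other lines. V segments resemble each other, so reads may have been divided among them.

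Of 30 interferon response genes 23 were tested, 3 of them only through line 524. Among the 23, 4 were called higher (2.84% of all genes were) and none lower. Isg15, a ubiquitin-like protein, was 6.52 CPM against 0.0658 to 0.554 (log2 difference 4.60 ± 0.65 SE, edgeR adjusted p = 0.00133). The RNA sensor RIG-I (Ddx58) was 35.4 CPM against 1.66 to 10.8 (adjusted p = 0.0331), a call lost with limma-trend (0.072; range over all alternatives 0.00859 to 0.072). Of 31 T and NK cell genes, 13 were tested and 2 were called higher (2.84% of all genes were), both of them only through line 524. Thy1 had 78 reads, 2.74 CPM, and Trac had 40 reads, 1.40 CPM, each against 0 to 0.0679. DESeq2 did not call Thy1 (adjusted p = 0.257; range over all alternatives 1.71e-05 to 0.257) and gave no adjusted p for Trac. The T cell receptor genes Cd3e, Cd3d and Cd3g and the coreceptor gene Cd4 had no read in line 524. In the whole list 17 genes had no read there, and 11 of these had none in any line.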
